A study of Mus musculus with 3 samples.

Results

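A small set of stromal cells that carry RNA of Mmp3, Dio2 and Il1rl1 was followed among the Pthrp-mCherry+ cells of the mouse molar root. The cells were chosen by a rule on RNA counts: at least 2 of the 3 genes detected, at least 4 UMIs (unique molecular identifiers, each standing for 1 captured RNA molecule) of the 3 together, Ibsp below 1% of a cell's UMIs, and no UMI of Ptprc or Epcam, which mark blood and epithelial cells. In all, 570 of 24328 cells passed, and they are called Mmp3/Dio2/Il1rl1 cells here. The 3 libraries came from Pthrp-mCherry knock-in mice, in which a red fluorescent reporter stands at the locus of parathyroid hormone-related protein (gene Pthlh), at postnatal day (P) 15, P25 and 8 weeks of age. The labels call the sorted cells PTHrP-mCherry+ cementoblasts and precursors. All 3 libraries share the reporter allele, a mostly C57BL/6 background and both sexes, no treatment was given, and no wild-type library was part of the comparison. Cells released by Liberase from first and second mandibular molars of several animals were pooled before sorting on mCherry, so each age is 1 library of pooled animals and no test between ages was possible. The sort reads a reporter protein, which can outlast the RNA.

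Mmp3 encodes stromelysin-1, a secreted protease that cuts proteoglycans, fibronectin and basement membrane proteins and activates other matrix metalloproteinases. Dio2 encodes type 2 deiodinase, which turns the prohormone thyroxine into the active thyroid hormone T3 inside the cell. Il1rl1 encodes ST2, the receptor of the alarmin interleukin-33, known best from mast cells, basophils and type 2 lymphocytes and also made by some fibroblasts as a soluble decoy. Root formation is led by an epithelial sheath whose surrounding mesenchyme gives rise to cementoblasts, the cells that lay down cementum, and to fibroblasts of the periodontal ligament.

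The cells numbered 170 of 11412 kept cells at P15 (1.49%, exact 95% binomial interval 1.28 to 1.73), 363 of 8325 at P25 (4.36%, 3.93 to 4.82) and 37 of 4591 at 8 weeks (0.806%, 0.568 to 1.11). These intervals cover counting error alone. The depth of the median cell was 13991.5 UMIs at P15, 20540 at P25 and 11540 in the 8-week library. When every cell was thinned to 3000 UMIs, the shares were 1.06% (0.879 to 1.27), 1.25% (1.02 to 1.51) and 0.334% (0.183 to 0.559). The intervals of P15 and P25 then overlapped, and the 8-week share lay below both. When all 3 genes and 8 UMIs were asked for, the shares were 0.412%, 0.252% and 0.0871%, with P15 above P25. The summed UMIs behind all levels below were 2583216, 8070833 and 435146, against 109523885, 90248116 and 29725422 in the other mesenchymal cells. Any 2 libraries shared at most 17 barcodes of kept cells. Of the 570 cells, 155 of 170, 359 of 363 and 37 of 37 also passed the gate of the mesenchymal cells. Doublet scores placed 11.2%, 11.3% and 2.70% of the cells in the top 6% of their library.

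The 3 genes of the rule were not equally common among the cells they picked. Dio2 was detected in 95.9%, 98.9% and 97.3% of them at the 3 ages in turn, and Il1rl1 in 94.7%, 95.3% and 59.5%. Mmp3 was detected in 63 of 170 cells (37.1%), 43 of 363 (11.8%) and 20 of 37 (54.1%). Most cells at P15 and P25 thus entered through Dio2 with Il1rl1 and no Mmp3: 107 of 170 and 320 of 363, against 17 of 37 at 8 weeks. All 3 genes together were found in 47, 22 and 4 cells. At 8 weeks 15 of the 37 cells entered through Mmp3 with Dio2 and no Il1rl1, against 9 and 17 at the younger ages.

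**Figure D1:**
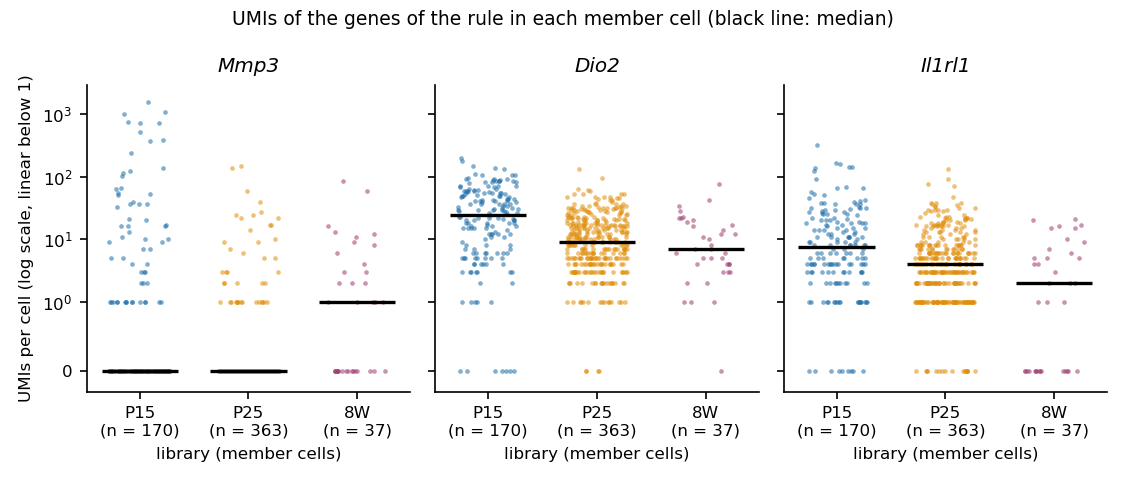
UMIs of Mmp3, Dio2 and Il1rl1 per cell (log axis, linear below 1) in the Mmp3/Dio2/Il1rl1 cells (members) of P15, P25 and 8 weeks (8W), with a point for each cell and a black line at the median. Dio2 and Il1rl1 were detected in most cells of P15 and P25, while Mmp3 was at 0 in the median cell of both and reached 1575 UMIs in 1 cell of P15.

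Counts of Mmp3 were concentrated in few cells. The lowest, median and highest counts per cell were 0, 0 and 1575 UMIs at P15, then 0, 0 and 149 in the P25 library and 0, 1 and 86 in the oldest library. The 5 cells with most Mmp3 held 60.3%, 64.4% and 77.1% of its UMIs in the 3 libraries. Dio2 was spread more evenly, with medians of 24.5, 9 and 7 UMIs and maxima of 197, 134 and 75. Il1rl1 had medians of 7.5, 4 and 2 UMIs and maxima of 323, 133 and 21.

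Because the rule selects on these genes, their levels are a description. Levels are given in CPM, the UMIs of a gene scaled to a fixed total of the summed UMIs of a group, always in the order P15, P25 and 8 weeks where 3 values follow each other. Mmp3 stood at 3321, 79.4 and 552 CPM, against 1.5, 0.587 and 14.8 in the other mesenchymal cells. Dio2 stood at 2346, 623 and 1055 CPM, against 8.75, 33 and 16. Il1rl1 stood at 1278, 349 and 393 CPM, against 2.23, 1.44 and 0.37. Counts per gene do not separate its membrane-bound and soluble forms. All 3 genes were highest at P15 in the chosen cells and lowest at P25.

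At the threshold, 5, 12 and 0 cells had exactly 4 UMIs of at least 2 of the genes, and 10, 13 and 4 cells had 3 UMIs and stayed outside. The 12 P25 cells just inside held 2699 CPM of Htra1, 898 CPM of Col18a1 and 2257 CPM of Serpine2. The 13 P25 cells just outside held 2932, 468 and 1629 CPM of the same genes. A further 151, 237 and 51 cells had 4 or more UMIs of a single one of the 3 genes, and at P25 these held 624 CPM of Dio2, 2826 CPM of Htra1, 836 CPM of Col18a1 and 2012 CPM of Serpine2. At P25 the cells on both sides of the line thus held much Htra1 and Serpine2. At P15 the 5 cells just inside held less, 625 CPM of Htra1 and 511 CPM of Serpine2, and the 10 just outside held 790 and 421 CPM.

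The DNA just upstream of the start of Mmp3, of its neighbour Mmp10 and of Dio2 is shown because each holds a short motif close to the start, and because Mmp3 and Mmp10 were detected together in part of the P15 cells (described further on). Mmp3 (ENSMUSG00000043613) and Mmp10 lie on the plus strand of chromosome 9 and Dio2 (ENSMUSG00000007682) on the minus strand of chromosome 12. The sequences are RefSeq promoter sequences of GRCm38.p6, written 5′ to 3′ on the gene's strand and taken from the 250 bases before the start, with up to 50 bases on either side of the motif. Capitals mark TGAGTCA, the motif of AP-1 (dimers of Fos and Jun proteins), in Mmp3 at chr9:7445726-7445821 and in Mmp10 at chr9:7502229-7502335, and TGACGTCA, the cAMP response element, in Dio2 at chr12:90739076-90739183.
Mmp3: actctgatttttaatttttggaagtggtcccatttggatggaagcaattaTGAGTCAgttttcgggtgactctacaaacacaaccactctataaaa
Mmp10: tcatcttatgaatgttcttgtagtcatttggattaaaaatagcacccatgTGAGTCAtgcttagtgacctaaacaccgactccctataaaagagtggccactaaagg
Dio2: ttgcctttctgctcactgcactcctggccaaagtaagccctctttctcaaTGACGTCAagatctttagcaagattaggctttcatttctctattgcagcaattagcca

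The AP-1 motif began 46 bases before the start of Mmp3 and 63 bases before that of Mmp10, and the cAMP response element 95 bases before that of Dio2. For Dio2 this is the start given by RefSeq, which lies upstream of the gene's 5′ end at position 90738438 in the GENCODE annotation. Searched on both strands in the 250 bases before the start, TGAGTCA occurred in 1466 of 32851 RefSeq promoter windows (4.46%) and TGACGTCA in 508 (1.55%). The letters of the motifs do not contain each other. Neither was found in the 2 windows of Il1rl1. A match describes the sequence and is not evidence that a factor was bound there.

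Besides the rule genes, 5 genes had been named as markers of these cells from earlier results of the same data, and their levels are likewise a description. Sod3, an extracellular superoxide dismutase, stood at 594, 495 and 609 CPM, against 2.89, 45.1 and 41 in the other mesenchymal cells. Stc1, the secreted glycoprotein stanniocalcin-1, stood at 503, 359.7 and 193 CPM, against 3.5, 27.8 and 7.47. Htra1, a secreted serine protease, stood at 2401, 3704 and 2500 CPM, against 115, 350.3 and 225. In each of the 3 genes the chosen cells lay above the other mesenchymal cells at every age. C1qtnf3, a secreted C1q/TNF-related protein, stood at 109.5, 351 and 214 CPM, against 17.9, 42.1 and 34.9. Cxcl5, a chemokine that attracts neutrophils, stood at 428, 1022 and 3629 CPM, against 4.7, 50.2 and 66.1, and at P15 its 5 highest cells held 72.6% of its UMIs.

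**Figure D2:**
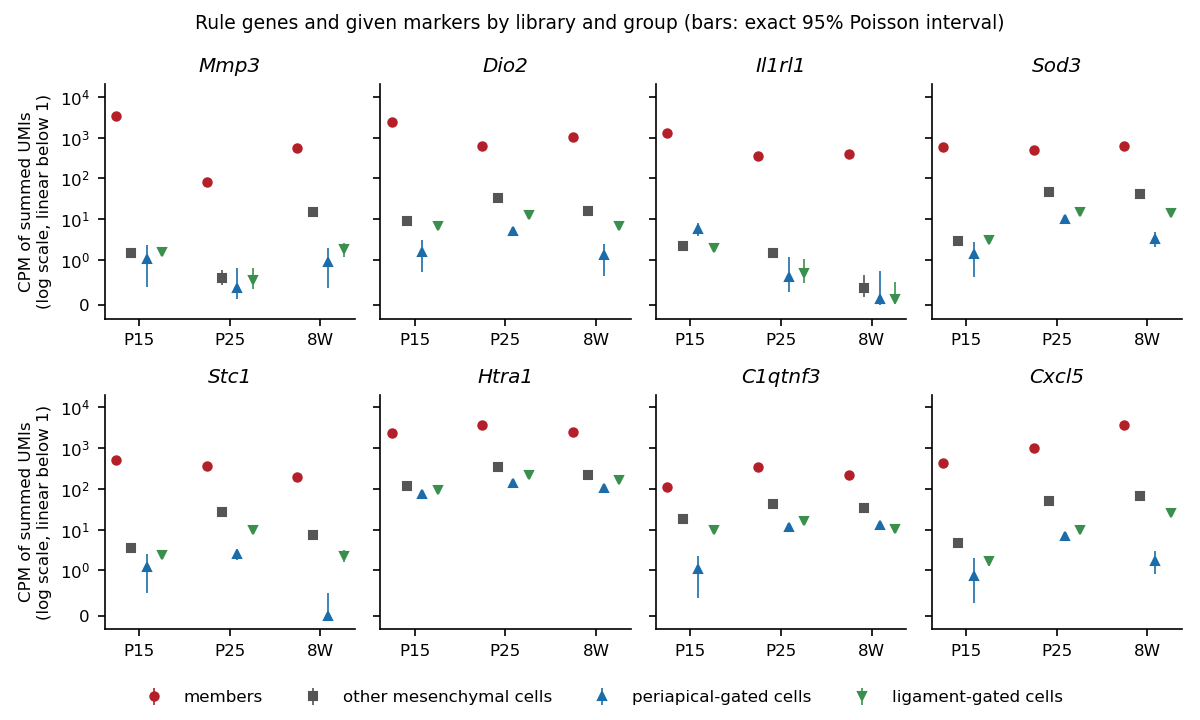
Levels in CPM of summed UMIs (log axis, linear below 1) of the 3 rule genes and the 5 further markers at P15, P25 and 8 weeks (8W) in the Mmp3/Dio2/Il1rl1 cells (members, red), other mesenchymal cells, periapical-gated cells and ligament-gated cells, with exact 95% Poisson intervals as bars. In the Mmp3/Dio2/Il1rl1 cells Mmp3 differed most between ages, at 3321, 79.4 and 552 CPM, and of the 5 further markers Cxcl5, at 428, 1022 and 3629 CPM.

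The share of cells with at least 1 UMI, after thinning each cell to 3000 UMIs, is set beside that of Ptprc-positive cells, blood cells that serve as a background, although some blood cells make ST2. At P15 Mmp3 was found in 24.7% of the thinned Mmp3/Dio2/Il1rl1 cells, 0.480% of the other mesenchymal cells and 0.580% of the Ptprc-positive cells. Dio2 was found in 90.1%, 1.52% and 2.03%, and Il1rl1 in 72.8%, 0.448% and 1.84%. For all 3 rule genes the share in the other mesenchymal cells of P15, from which cells meeting the rule had been taken out, was thus below that background. At P25 Dio2 was found in 4.98% of the other mesenchymal and 4.68% of the Ptprc-positive cells. At P15 Sod3 was found in 46.9%, 0.864% and 0.677%, and Htra1 in 92.6%, 21.9% and 7.16%. Col18a1, which is not part of the rule, was found at P15 in 67.3%, 6.41% and 3.77%. The median depths at P15 before thinning were 13991.5, 16422 and 11498 UMIs. Unthinned, the shares for Mmp3 were 37.1%, 2.47% and 1.96%.

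The working name of these cells was apical fibroblasts, and markers of both words were looked up. Fibroblast markers were present. Pdgfra, a receptor that marks fibroblasts, stood at 644, 312 and 349 CPM, against 182, 145 and 201 in the other mesenchymal cells, and was detected in 93.5% of the P15 cells. Collagen and proteoglycan genes of fibroblasts were abundant, with Col3a1 at 8772, 15950 and 15290 CPM and Lum at 2616, 3487 and 3068 CPM. Dcn, another fibroblast proteoglycan, stood at 476, 3194 and 6506 CPM against 1111, 1927 and 3454 in the other mesenchymal cells, lower at P15 and higher at the later ages.

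Markers of the cells around the root apex divided. Hand2, a transcription factor of the distal jaw, stood at 0, 9.54 and 16.1 CPM, against 322, 209 and 273 in cells gated on Hand2, Nts and Alx1 (periapical-gated cells). Nts, the neuropeptide neurotensin, stood at 6.58, 41.4 and 46 CPM, against 1127, 1356 and 1320, and Alx1, a homeobox gene, at 0, 7.06 and 2.3 CPM, against 152, 141 and 169. No UMI of Hand2 or Alx1 was found at P15, where a count of 0 allows up to 1.16 CPM. Only 0, 19 and 1 of the cells passed the periapical gate, while 38, 60 and 4 of 170, 363 and 37 passed the gate for ligament cells used further on. In the test against the other mesenchymal cells, described further on, 4.99% of all tested genes were higher and 6.28% were lower. Of 14 tested genes that the study lists for periapical cells, 5 were higher than in the other mesenchymal cells (Serpine2, Col4a1, Col18a1, Prrx1 and Itgbl1) and 4 were lower (Csrp2, Nts, Ebf1 and Alx1). Hand2 was among the 5 not called. That list was drawn up by the study on these samples and joins several of its clusters. The tested annotation markers of one of them (Itgbl1, Col18a1, Col4a1 and Serpine2) were all higher here, as was its Htra1, a given marker that got no test, while Csrp2, Nts and Alx1 belong to another. Where in the tooth the cells lay was not measured, and they are named here by their rule alone.

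The reporter and its gene were present. Pthlh stood at 455, 341 and 299 CPM, against 99.5, 172 and 166 in the other mesenchymal cells, higher in 3 of 3 libraries but not called (log2 fold change 1.32 ± 0.32, adjusted p = 0.0521). The mCherry transcript (mCherry_trans) stood at 460.3, 351 and 354 CPM, against 219, 327 and 375, higher at P15 and P25 and lower at 8 weeks. The receptor Pth1r was not called (log2 fold change -0.12 ± 0.16, adjusted p = 0.967).

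To ask which genes set these cells apart, UMIs were summed by library and group and compared within libraries by edgeR's quasi-likelihood test, with the library as a block. The comparison group was the other mesenchymal cells, which held UMIs of collagen I and of Pdgfra or Pdgfrb and none of endothelial Pecam1 or Cdh5. A gene was called at an adjusted p below 0.05 (Benjamini-Hochberg over all genes tested) with a log2 fold change beyond 1 in either direction, and errors are standard errors over n = 3 libraries. Of 12837 genes, 641 (4.99%) were higher in the Mmp3/Dio2/Il1rl1 cells and 806 (6.28%) were lower. The median log2 fold change over all genes tested was -0.06. The 3 libraries differ in age and were made from separate pools, so the p-values measure how steady a difference was across them. Without the block, 433 genes were higher and 397 lower.

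The genes named for the largest positive differences included collagens and secreted proteins. Col18a1, which encodes the basement membrane collagen that gives endostatin, stood at 554 CPM at P15, 963 at P25 and 761 at 8 weeks, against 26.5, 80.8 and 33.7 in the other mesenchymal cells (log2 fold change 4.12 ± 0.20, adjusted p = 3.1e-06). Serpine2, an inhibitor of thrombin and plasminogen activators (protease nexin-1), stood at 3698 CPM at P15, 2723 at P25 and 2675 at 8 weeks, against 229.6, 264 and 129 (log2 fold change 3.88 ± 0.20, adjusted p = 3.14e-05). Cpxm2, a secreted carboxypeptidase-like protein, stood at 111, 161 and 136 CPM, against 4.5, 8.66 and 5.48 (log2 fold change 4.44 ± 0.16, adjusted p = 1.2e-07). The ranges of these 3 genes did not overlap between the groups. They were named for large differences in the same direction in every library. How many of all tested genes had ranges apart was not counted. Ranges that did not overlap, here and below, describe only the genes they are given for. Col6a5, a collagen VI chain, stood at 77 CPM at P15, 201 at P25 and 506 at 8 weeks, against 5.31, 19.5 and 21.7 (log2 fold change 3.88 ± 0.23, adjusted p = 4.31e-05). Here too every Mmp3/Dio2/Il1rl1 value lay above every compared one.

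The other genes named by the rule of the largest differences included receptors and signalling proteins. Tnfrsf21, a death receptor of the TNF receptor family, stood at 458, 202 and 347 CPM, against 11.3, 16.6 and 9.52 (log2 fold change 4.67 ± 0.52, adjusted p = 0.0183). Rorb, a nuclear receptor, stood at 78.2, 266 and 444 CPM, against 4.25, 25.8 and 15.1 (log2 fold change 4.09 ± 0.33). Adgrf5, an adhesion G protein-coupled receptor, stood at 87.1, 57.1 and 71.2 CPM, against 4.82, 4.69 and 3.53 (3.97 ± 0.20). Rorb was lowest at P15 and highest at 8 weeks in the cells themselves, while Adgrf5 stayed between 57.1 and 87.1 CPM. The adaptor Shc4 (3.90 ± 0.55), the potassium channel subunit Lrrc55 (3.80 ± 0.19) and the retinoid-responsive gene Rarres1 (3.76 ± 0.39) completed the group. Without the 8-week library Tnfrsf21 (adjusted p = 0.0559) and Shc4 (adjusted p = 0.0621) were no longer called. Without the library block Rorb (adjusted p = 0.0633), Col6a5 (0.0541) and Rarres1 (0.0948) were not called either.

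The genes named for the largest negative differences included those of matrix proteins, secreted hormones and markers of the gated neighbours. Ogn, the small proteoglycan osteoglycin, stood at 108 CPM at P15, 84.4 at P25 and 152 at 8 weeks, against 750.1, 683 and 893 (log2 fold change -2.83 ± 0.14, adjusted p = 4.71e-07). Vit, the matrix protein vitrin, stood at 11.6, 22.6 and 13.8 CPM, against 108, 167 and 244 (log2 fold change -3.22 ± 0.21, adjusted p = 9.09e-06). Gpha2, a glycoprotein hormone subunit, stood at 10.4, 30.7 and 4.6 CPM, against 107, 294 and 214 (log2 fold change -3.54 ± 0.29, adjusted p = 0.000443). The ranges of these 3 genes did not overlap between the groups, for which the share over all genes was likewise not counted. Pmch, the gene of melanin-concentrating hormone, was represented by 7, 16 and 0 UMIs in the Mmp3/Dio2/Il1rl1 cells, against 40.8, 61.7 and 78.8 CPM in the other mesenchymal cells (log2 fold change -4.75 ± 0.32, adjusted p = 1.25e-05). The 0 at 8 weeks allows up to 6.89 CPM. Angpt4 (-3.19 ± 0.52), Col11a2 (-2.99 ± 0.19), Nts (-2.92 ± 0.21) and Cd24a (-2.89 ± 0.21) were also lower. Bglap3 (-3.02 ± 0.25), an osteocalcin-related gene, is uncertain because near-identical copies may share its reads. For Hbb-bt, a globin gene of red cells, the value was -4.39 ± 0.35, and at 8 weeks the Mmp3/Dio2/Il1rl1 cells held no UMI, which allows up to 6.89 CPM. Without the block Hbb-bt (adjusted p = 0.203), Col11a2 (0.143) and Nts (0.105) were no longer called, and Angpt4 was not without the low-count filter (0.0811) or, at a larger log2 fold change of -4.46, once cells of high doublet score were removed (0.0515). Under the stricter rule of all 3 genes and 8 UMIs, which leaves P15 and P25, Gpha2 (-2.06), Vit (-1.88) and Angpt4 (-1.26) differed less and Nts more (-4.97).

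**Figure D3:**
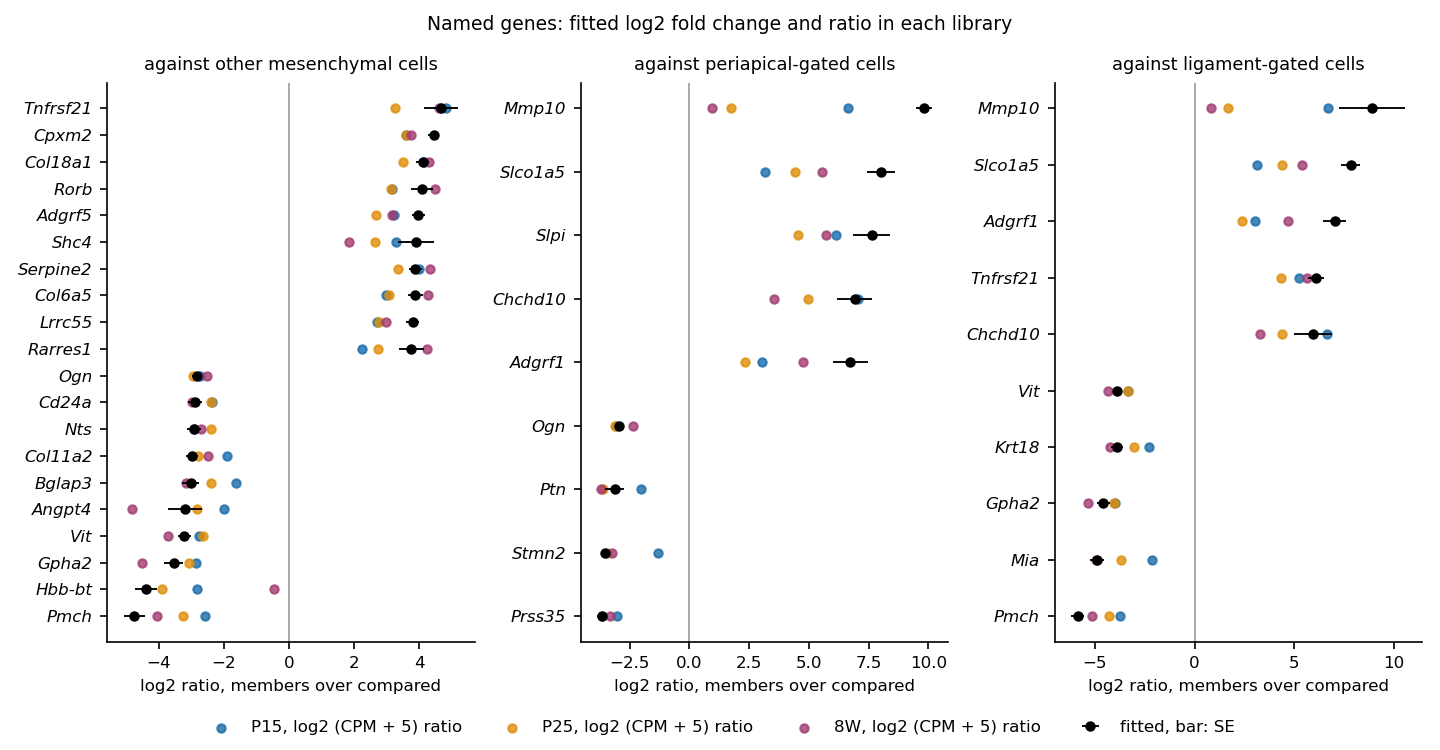
Genes named in the comparisons with other mesenchymal, periapical-gated and ligament-gated cells: fitted log2 fold change (black, bar: SE) and the log2 ratio of CPM + 5 in each library (P15, P25, 8W), Mmp3/Dio2/Il1rl1 cells (members) over the compared cells. A gene was named only if its library ratios lay on 1 side of 0, and the fitted values run from Tnfrsf21 (4.67) to Pmch (-4.75) in the comparison with other mesenchymal cells, where Hbb-bt at 8 weeks lies nearest to 0.

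The lists that follow are to be read against the 4.99% of all tested genes that were higher and the 6.28% that were lower. Among the protease genes beyond Mmp3, most did not pass the test. Of 12 matrix metalloproteinase genes tested, 2 were higher (Mmp19 and Mmp28), 1 was lower (Mmp16) and the median log2 fold change was 0.90. Mmp11, stromelysin-3, stood at 1204, 563 and 223 CPM, against 28.2, 41.3 and 32.9, above in 3 of 3 libraries without passing (log2 fold change 3.99 ± 0.81, adjusted p = 0.0986). Mmp13, a collagenase, stood at 1702, 279.6 and 375 CPM, against 335, 402 and 204, and was lower than in the other mesenchymal cells at P25 (log2 fold change 0.87 ± 0.83, adjusted p = 0.592). Mmp10, stromelysin-2, stood at 543, 11.8 and 4.6 CPM, against 0.393, 0.621 and 0.168 (log2 fold change 7.35 ± 2.61, adjusted p = 0.239), with 59.8% of its P15 UMIs in 5 cells. Of the 17 ADAMTS and TIMP genes, 2 were higher (Adamts4 and Adamts12) and 5 were lower, among them Adamts5, an aggrecanase (-1.13 ± 0.17). Of 13 serine proteases and serpins, 3 were higher (Serpine2, Htra3 and Plat) and Prss35 was lower. Plat encodes tissue plasminogen activator and differed by 1.23 ± 0.16 on the log2 scale.

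Basement membrane genes were called higher more often than lower. Of 16 tested, 8 were higher and 1 was lower, with a median log2 fold change of 1.38 against -0.06 for all genes. Col4a1, a chain of the collagen IV network, stood at 748, 903 and 699 CPM, against 125, 115 and 80.5 (log2 fold change 2.85 ± 0.15, adjusted p = 4.71e-07), and its partner Col4a2 differed by 2.90 ± 0.14. The anchoring fibril collagen Col7a1 differed by 3.43 ± 0.17, and the laminin chains Lamb1, Lamc1, Lama2 and Lama5 by 1.33, 1.63, 2.36 and 3.79. Col4a5 was lower (-2.36 ± 0.41). Perlecan (Hspg2, 0.70 ± 0.14) and nidogen-1 (Nid1, 0.24 ± 0.14) were not called. Of 15 fibrillar and associated collagens, 5 were higher (Col12a1, Col6a1, Col6a2, Col6a3 and Col5a3) and 2 lower (Col8a2 and Col2a1). Col5a3 showed the largest value of these (3.42 ± 0.22).

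The proteoglycans and matricellular proteins divided. Of 30 tested, 5 were higher (Postn, Spon1, Thbs2, Fbln2 and Fbln5) and 6 lower (Omd, Thbs4, Ogn, Fn1, Fbln1 and Eln). Postn, periostin, a protein abundant in the ligament, stood at 3792, 5577 and 3615 CPM, against 1138, 2396 and 2003 (log2 fold change 1.24 ± 0.18, adjusted p = 0.00427), and the ranges did not overlap. Of 20 integrin and adhesion genes, 7 were higher, among them Itga8, a chain of the nephronectin receptor (3.22 ± 0.18), and Itgbl1, an integrin beta-like protein (2.44 ± 0.15), and 3 were lower (Ncam1, Cdh2 and Itga10). Of 11 ligament and tendon genes, 4 were higher (Postn, Col12a1, Tnmd and Chodl) and Egr1 was lower. Tnmd, tenomodulin, stood at 532, 827 and 253 CPM, against 149.8, 96.3 and 49.6 (log2 fold change 2.40 ± 0.28, adjusted p = 0.0032).

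Around the ST2 receptor, 3 other receptor genes of the interleukin-1 family were higher. Of 14 genes tested in the interleukin-1 and interleukin-33 pathway, 4 were higher and none was lower. They were Il1r1, the receptor of interleukin-1 (126, 83.8 and 218 CPM against 27.7, 29.5 and 52, log2 fold change 1.88 ± 0.16, adjusted p = 1.58e-05), Il1r2, its decoy (2.16 ± 0.51), Il1rl2, the interleukin-36 receptor (1.37 ± 0.19), and the kinase gene Irak2 (1.36 ± 0.43). The accessory chain Il1rap differed by 0.41 ± 0.22 and was not called, nor was Sigirr, an inhibitory receptor of the family with 7 UMIs in all. The ligand gene Il33 was represented by 1, 0 and 15 UMIs, or 0.387, 0 and 34.5 CPM, against 3.36, 4.1 and 18.2 in the other mesenchymal cells, and was not called (adjusted p = 0.598).

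Of 16 genes of the NF-kB response, the transcription programme downstream of these receptors, 7 were higher and Icam1 was lower (-1.33 ± 0.22). Those higher were Tnfaip2, Ptges, Nfkb1, Relb, Tnfaip3, Nfkb2 and Nfkbie, with Tnfaip2 at 1.37 ± 0.13 and the feedback inhibitor Tnfaip3 at 1.34 ± 0.34 (adjusted p = 0.0491). Of 16 chemokine genes, 3 were higher (Cxcl1, Ackr4 and Cxcl16) and 3 lower (Cxcl12, Ccl11 and Ccl19). Cxcl1, a neutrophil attractant, stood at 469.6, 294 and 1096 CPM, against 76.8, 115 and 229.9 (log2 fold change 2.04 ± 0.25, adjusted p = 0.00313). Ackr4, a scavenging chemokine receptor, differed by 3.15 ± 0.56. Of 14 complement genes, C3 was higher (1.22 ± 0.22), C2 was lower, and C4b had no UMI in any library of these cells, at least 11.4-fold lower over the pooled counts.

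Genes of thyroid hormone handling beside Dio2 were few in counts. Of 12 tested, 3 were higher (Hr, Thrb and Slc16a10) and Dio3 was lower. Dio3, the deiodinase that inactivates thyroid hormone, stood at 7.74, 10.3 and 2.3 CPM, against 53.7, 51.1 and 88.1 (log2 fold change -2.74 ± 0.31, adjusted p = 0.00105), and the ranges did not overlap. Hr, hairless, a corepressor that thyroid hormone induces, stood at 16.6, 23.5 and 13.8 CPM, against 4.67, 3.89 and 2.42 (log2 fold change 2.27 ± 0.29, adjusted p = 0.000256). The receptor Thrb stood at 20.5, 19.8 and 4.6 CPM, against 6.81, 6.77 and 8.58 (log2 fold change 1.26 ± 0.34, adjusted p = 0.0331), lower at 8 weeks on 2 UMIs. The transporter Slc16a10 was below 7 CPM in each library. Of 14 genes of the cAMP response, which induces Dio2 in other tissues, 2 were higher (the phosphodiesterases Pde4d, 2.94 ± 0.24, and Pde10a, 1.25 ± 0.31) and 2 lower (Fosb and Nr4a1).

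Secreted signals were mixed. Of 24 growth factor and interleukin-6 family genes, 5 were higher (Fgf7, Vegfc, Osmr, Hgf and Clcf1) and 6 lower, among them Angpt4, Angpt1, Pdgfc, Bdnf and Ctf1. Fgf7, keratinocyte growth factor, stood at 63.5, 74.1 and 241 CPM, against 9.17, 14 and 18.9 (log2 fold change 2.89 ± 0.24, adjusted p = 0.000185). The lymphatic growth factor Vegfc stood at 56.9, 52 and 71.2 CPM, against 11.6, 14.1 and 11.9 (log2 fold change 2.19 ± 0.18, adjusted p = 1.53e-05). Both were above the compared cells in each library. Of 7 regulators of osteoclasts, Il34 was higher (2.09 ± 0.22), and Csf1 (-1.19 ± 0.22), which acts on the same receptor, and Sema3a were lower. Of 13 genes of the insulin-like growth factor axis, Igfbp7 (1.57 ± 0.11) and Igfbp2 were higher and Pappa2 lower. Of 7 C1q and TNF related genes, 3 were higher (C1qtnf7, C1qtnf1 and C1qtnf2) and C1qtnf4 lower.

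In the Wnt pathway, which the study examined in cementum formation, as many genes were higher as lower. Of 35 tested, 6 were higher (Wnt5a, Dkk3, Nkd2, Dkk2, Rspo1 and Lgr5) and 6 lower (Wif1, Tcf7, Frzb, Tcf7l1, Lgr6 and Rspo2), with a median of -0.39. Wnt5a, a noncanonical ligand, stood at 776 CPM at P15, 1367 at P25 and 1177 at 8 weeks, against 128, 176 and 191 (log2 fold change 2.70 ± 0.14, adjusted p = 4.71e-07). Wif1, a secreted Wnt inhibitor, stood at 1196 CPM at P15, 1480 at P25 and 1666 at 8 weeks, against 2944, 4650 and 5849 (log2 fold change -1.62 ± 0.12, adjusted p = 8.82e-06). The ranges of both genes were apart. Axin2, a common readout of canonical signalling, stood at 70.1, 36.7 and 46 CPM, against 40.1, 25.7 and 29.1, and was not called (0.63 ± 0.16).

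Of 29 BMP and TGF-beta genes, 6 were higher (Bmp3, Ltbp1, Bmp4, Inhba, Inhbb and Fst) and 5 lower (Id3, Id1, Id2, Bambi and Nog). Bmp3, an antagonist-like ligand, stood at 516, 335 and 666 CPM, against 96.3, 140.5 and 187 (log2 fold change 1.80 ± 0.22, adjusted p = 0.00162). Id1, Id2 and Id3, direct targets of BMP signals, were lower and Id4 was not called, with log2 fold changes of -1.88 ± 0.15 for Id1 and -1.31 ± 0.17 for Id2. Of 17 hedgehog and Notch genes, Dll1 was higher and Ptch1, Hey1 and Gli1 were lower. Of 22 genes of prostaglandin and retinoid handling, 8 were higher and 4 lower. Cyp26b1, which degrades retinoic acid, stood at 278, 296 and 354 CPM, against 24.2, 34.9 and 34.5 (log2 fold change 3.29 ± 0.15, adjusted p = 3.6e-07). Ptges, prostaglandin E synthase, stood at 162, 145 and 140.2 CPM, against 28.4, 57.9 and 65.9 (log2 fold change 1.65 ± 0.33, adjusted p = 0.0369).

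Of 17 mineralisation genes, 8 were lower, among them Alpl, Dlx5, Sp7, Col11a2, Ank, Dlx3 and Phex, and 1 was higher (Bmp3), with a median of -2.53. A further 8 were not called, among them Runx2, Bglap, Spp1 and Dmp1. Alpl, tissue-nonspecific alkaline phosphatase, stood at 139, 145 and 66.6 CPM, against 274, 293 and 274 (log2 fold change -1.29 ± 0.22, adjusted p = 0.00521). Sp7, osterix, stood at 19.4, 25.3 and 16.1 CPM, against 87.9, 116 and 99.7 (log2 fold change -2.27 ± 0.16, adjusted p = 4.41e-06). Both were below the compared cells in each library. Both groups had been cleared of cells with 1% or more Ibsp, and this gene got no test. Ibsp stood at 778 CPM at P15 and 476 at P25, against 525 and 1041, and was thus higher at P15 and lower at P25. Of 14 genes that the study lists for cementoblast precursors, 7 were lower (Thbs4, Ogn, Pcp4, Id1, Bambi, Alpl and Cxcl12) and none was higher, a list likewise drawn up on these samples. All 6 tested chondrocyte genes were lower, with Sox9 at 29.4, 13.4 and 23 CPM, against 118, 94.4 and 148 (log2 fold change -2.49 ± 0.19, adjusted p = 1.25e-05).

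Of 27 jaw patterning transcription factors, Prrx1 was higher (1.51 ± 0.13) and 8 were lower, among them Dlx5, Nr2f2, Dlx6, Dlx1, Dlx4, Dlx3 and Alx1. Of 18 fibroblast identity genes, 5 were higher (S100a6, S100a4, Prrx1, Dpt and Thy1) and 2 lower (Pi16 and Gli1). S100a4, a calcium-binding protein also called fibroblast-specific protein 1, stood at 229, 1737 and 969.8 CPM, against 21.2, 236 and 139.7 (adjusted p = 9.89e-07). Of 21 redox genes, Nqo1 alone was called and it was lower. Of 9 genes of the stanniocalcin and PTHrP axis, Pappa2 and Calcrl were lower.

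**Figure D4:**
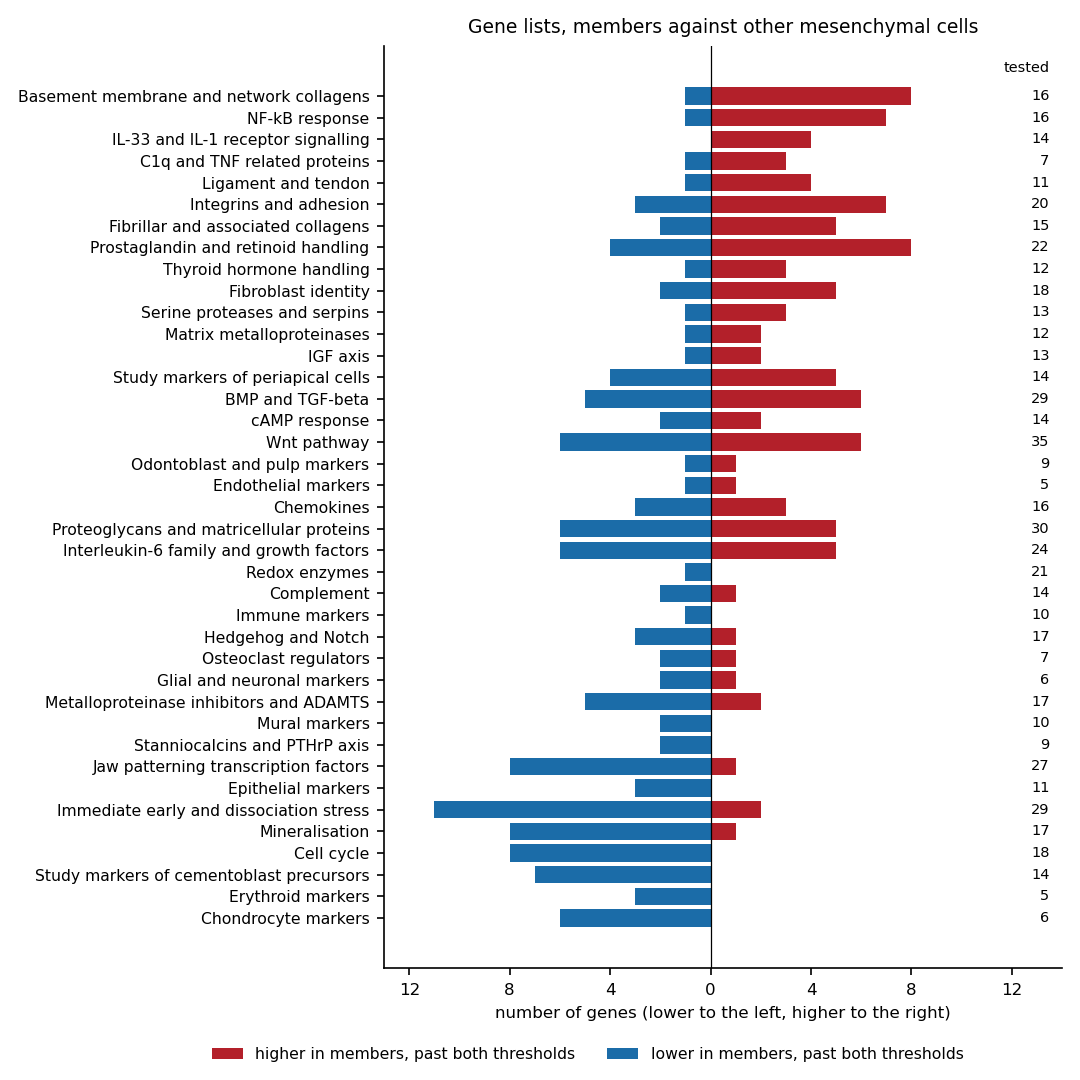
Number of genes of each list (number tested at the right) that were higher (red, to the right) or lower (blue, to the left) in the Mmp3/Dio2/Il1rl1 cells (members) than in the other mesenchymal cells, past both thresholds, which 4.99% and 6.28% of all tested genes were. Basement membrane genes (8 of 16) lean to the higher side, and mineralisation (8 of 17), cell cycle (8 of 18) and chondrocyte genes (6 of 6) to the lower.

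Genes of dissociation stress and of the cell cycle were called lower more often than higher. Of 29 immediate early and dissociation stress genes, 11 were lower and 2 higher (Cebpb and Fosl1), and their summed level was 13317.5, 14463.6 and 21137.7 CPM, against 19825.2, 26790 and 35586.2 CPM. Of 18 cell cycle genes, 8 were lower and none higher, with summed levels of 364, 502 and 117 CPM against 1089, 828 and 409 CPM. The part of dissociation in the results above was not tested. Fos, whose protein binds the AP-1 motif, stood at 1905, 2603 and 4233 CPM, against 4402, 4743 and 7479 (-0.99 ± 0.11), which falls short of the fold threshold.

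Markers of other cell types were counted in the same way. Endothelial markers summed to 48.4, 37.5 and 113 CPM, against 58.0, 43.3 and 71.1 CPM, with Ramp2 the most abundant. Of 5 tested endothelial genes Plvap was higher (7.74, 11.5 and 29.9 CPM against 1.46, 1.51 and 2.15), and Tek, with no UMI, was at least 6.35-fold lower over the pooled counts. Vwf had no UMI at any age. Mural genes (2 of 10 lower), epithelial genes (3 of 11 lower) and immune genes (1 of 10 lower) had none higher. At P15 the summed immune markers stood at 211 CPM against 251 CPM, with S100a9 the most abundant at 84.8 CPM, at P25 at 22.6 against 26.6 CPM and at 8 weeks at 48.3 against 23.01 CPM, and their part in the results was not tested. Erythroid markers summed to 90.6, 35.8 and 16.1 CPM, against 796, 1000.3 and 23.7 CPM, and 3 of 5 were lower. Their part in the Hbb-bt value was not tested. Of 6 glial and neuronal genes Gpm6b was higher (2.84 ± 0.22), and Tubb3 and S100b were lower, with Sox10 at 0 throughout. Of 4 osteoclast genes Ctsk, cathepsin K, was higher (784, 1403 and 1147 CPM against 314, 621 and 485), as was Atp6v0d2, and Acp5 was lower, with Calcr and Dcstamp at 0. Osteoclast markers summed to 831, 1462 and 1248 CPM, against 384, 712 and 559 CPM, most of it Ctsk, which these cells and the compared ones both held. The part of the endothelial, glial and osteoclast markers in the results was not tested. Of 9 odontoblast and pulp genes Col24a1 was higher and Phex lower.

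Against the periapical-gated cells (274, 908 and 650 cells), 725 of 11706 genes (6.19%) were higher in the Mmp3/Dio2/Il1rl1 cells and 455 (3.89%) lower. Slco1a5, an organic anion transporter that carries thyroid hormones, stood at 39.5, 121 and 237 CPM, against 0, 0.926 and 0.134 (log2 fold change 8.02 ± 0.58, adjusted p = 0.00259). Slpi, a secreted inhibitor of neutrophil elastase, stood at 392, 166 and 267 CPM, against 0.707, 2.28 and 0.134 (log2 fold change 7.63 ± 0.78, adjusted p = 0.00946). Slpi was also found in 42.8% of the Ptprc-positive cells of P15, and 76.1% of its UMIs in the Mmp3/Dio2/Il1rl1 cells of P15 lay in 5 cells. Chchd10, a mitochondrial protein, stood at 937, 242 and 75.8 CPM, against 2.12, 2.84 and 1.88 (log2 fold change 6.92 ± 0.72, adjusted p = 0.00937). Adgrf1, an adhesion receptor, stood at 37.2, 23.8 and 133 CPM, against 0.177, 0.679 and 0.134 (log2 fold change 6.74 ± 0.73, adjusted p = 0.00698). Each of the 4 genes stood at no more than 3 CPM in the periapical-gated cells, and the same direction in all libraries was a condition for naming them. The periapical-gated cells held 16 UMIs of Slco1a5 and 13 of Adgrf1 over all libraries, so the ratios of the pooled levels, 195 and 70.3, have counting intervals of 119 to 342 and 40.6 to 133. Mmp10 was represented there by 3 UMIs, all at P15, where the ratio of the levels was 1024 with a counting interval of 350 to 4970. Slpi was no longer called without the P15 library (adjusted p = 0.0889), nor Chchd10 without P25 (0.185) or when separate parts of each cell's UMIs served the rule and the sums (0.108), nor Mmp10 without the block (0.0566), and the count of all calls was 687 without P25.

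Lower than in the periapical-gated cells were Prss35 (log2 fold change -3.67 ± 0.17, adjusted p = 0.000145), the neuronal growth protein Stmn2 (-3.53 ± 0.18), Ogn (-2.94 ± 0.19) and Ptn. Ptn, the heparin-binding cytokine pleiotrophin, stood at 689.8, 598 and 740 CPM, against 2789, 7425 and 9527 (log2 fold change -3.12 ± 0.40, adjusted p = 0.0128). Its summed level was about the same over the ages in the Mmp3/Dio2/Il1rl1 cells and higher at the later ages in the periapical-gated ones. Ptn was detected in 72.9%, 48.8% and 56.8% of the Mmp3/Dio2/Il1rl1 cells. The median cell held 1, 0 and 1 UMIs of Ptn, and the 5 highest cells held 50.6%, 24.2% and 91.0% of its UMIs. Stmn2 was not called without the library block (adjusted p = 0.213), nor were Stmn2 (0.0798) and Ptn (0.110) when separate parts of the UMIs served the rule and the sums. Of 14 basement membrane genes, 9 were higher and Col4a5 lower (median 1.85). Of 24 jaw transcription factors, 6 were higher and 7 lower, among them Barx1 at 327, 298 and 264 CPM, against 53, 53.8 and 20.7 (log2 fold change 2.88 ± 0.25, adjusted p = 0.00245). Of 28 immediate early and stress genes, only Cebpb was higher and only Myc lower (median -0.04). Of 18 cell cycle genes, 11 were lower.

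Against the ligament-gated cells (2383, 2277 and 1448 cells, gated on Ogn, Angpt4, Igfbp3 and Sfrp2), 818 of 12325 genes (6.64%) were higher and 824 (6.69%) lower. Slco1a5 stood at 39.5, 121 and 237 CPM, against 0.0225, 0.927 and 0.762 (log2 fold change 7.83 ± 0.48, adjusted p = 0.000436), and Tnfrsf21 at 458, 202 and 347 CPM, against 7.16, 5.16 and 2.15 (log2 fold change 6.08 ± 0.41, adjusted p = 0.000642). Adgrf1 (7.01 ± 0.57), Chchd10 (5.94 ± 0.95) and Mmp10 (8.88 ± 1.67, adjusted p = 0.0496) were also higher. Mmp10 lost its call without the P25 library (adjusted p = 0.414) or the 8-week library (0.0808), and Chchd10 likewise (0.387 and 0.0573). Lower were Pmch (-5.86 ± 0.32), the secreted protein Mia (-4.87 ± 0.36), Gpha2 (-4.56 ± 0.31), keratin Krt18 (-3.88 ± 0.32) and Vit (-3.87 ± 0.23). Mia stood at 0.387, 5.33 and 0 CPM, against 18.2, 128 and 150.4, and Krt18 at 5.03, 4.09 and 2.3 CPM, against 42.9, 68.5 and 131. Of 13 matrix metalloproteinases, 6 were higher (Mmp2, Mmp14, Mmp11, Mmp10, Mmp19 and Mmp28), and Mmp15 was lower. Of 14 basement membrane genes, 8 were higher and Col4a5 lower (median 1.55).

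The 3 comparisons share the same Mmp3/Dio2/Il1rl1 cells. Cells that met the rule but held 1% or more Ibsp numbered 2, 6 and 1, too few to compare. Set against all other kept cells of any type, 616 of 13607 genes (4.53%) were higher and 1173 (8.62%) lower.

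Within the Mmp3/Dio2/Il1rl1 cells, those with Mmp3 can be described beside those without. These differences are a description, since the cells of a library are not replicates and Mmp3 is part of the rule. Mmp10 was found in 46.0% of 63 cells with Mmp3 and 11.2% of 107 without at P15, in 23.3% of 43 and 4.06% of 320 at P25, and in 1 of 20 and 1 of 17 at 8 weeks. Genes with a higher level in the Mmp3-positive cells of all 3 libraries included Igfbp6, at 263, 1202 and 1123 CPM against 16.9, 253 and 514 CPM. Mmp13 stood at 3051, 543 and 511 CPM against 867, 246 and 212 CPM. It was found in 77.8%, 67.4% and 25% of the Mmp3-positive cells, against 49.5%, 40% and 29.4%, so at 8 weeks its share was lower in them. Ptgs1, cyclooxygenase-1, stood at 92.1, 58.4 and 50.7 CPM against 27.0, 23.1 and 15.1 CPM. The Mmp3-negative cells held more Moxd1, a monooxygenase-like protein, at 418, 119.9 and 242 CPM against 121, 41.1 and 42.2 CPM. Lox, lysyl oxidase, which cross-links collagen, stood at 476, 446 and 338 CPM in them against 226, 209 and 101 CPM. Wnt5a stood at 935, 1446 and 1614 CPM in them against 519, 758 and 811 CPM. Il1rl1 stood at 1826, 345 and 135 CPM in the Mmp3-positive cells, against 938, 349 and 701 CPM in the others. Dio2 stood at 2559, 580 and 659 CPM, against 2214, 629 and 1528 CPM. Both were thus above the Mmp3-negative cells at P15 and below them at 8 weeks, and by the rule a cell without Mmp3 must hold both.

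Between the ages the cells are compared as levels of 1 library each, with exact 95% Poisson intervals that cover counting error only. Of 3735 genes with at least 50 CPM at P15 or 8 weeks, 116 (3.11%) were higher at 8 weeks by a log2 ratio of 1.5 or more and 74 (1.98%) were lower. Genes were named where the change in these cells differed most from that in the other mesenchymal cells. Enpp2, autotaxin, which makes lysophosphatidic acid, stood at 17.03 CPM at P15 (12.4 to 22.9), 396 at P25 (383 to 410) and 1344 at 8 weeks (1238 to 1458), against 59.1, 75.8 and 80.0 CPM in the other mesenchymal cells. Ccl2, a monocyte attractant, stood at 8.13, 64.1 and 269 CPM (222 to 322 at 8 weeks), against 15.9, 14.1 and 27.9 CPM. The 5 cells with most Ccl2 held 71.4%, 77.0% and 63.2% of its UMIs. The order of the ages was a condition for naming these genes and is no finding.

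Vcam1, an adhesion molecule for leukocytes, stood at 6.58, 36.9 and 110 CPM (81.3 to 146 at 8 weeks), against 31.6, 18.5 and 9.92 CPM in the other mesenchymal cells. Cxcl10, an interferon-induced chemokine, stood at 0.774, 29.4 and 108 CPM (79.4 to 144 at 8 weeks), against 13.9, 29.9 and 21.5 CPM. 1500015O10Rik stood at 25.5, 148 and 1158 CPM (1059 to 1264 at 8 weeks), against 30.1, 95.2 and 105 CPM. Vcam1, Cxcl10 and 1500015O10Rik were thus each below the other mesenchymal cells at P15. Single cells weighed heavily here, since 1 cell held 59.7% of the 8-week UMIs of 1500015O10Rik, and 1 cell held 65.0% of those of Cxcl10 at P25 and 66.0% at 8 weeks. Cxcl3 stood at 0.387, 0.496 and 71.2 CPM, but 1 cell held 96.8% of its 8-week UMIs.

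In the other direction, Saa3, an acute phase protein, stood at 1888 CPM at P15 (1835 to 1942), 2.35 at P25 and 0 at 8 weeks, and 24 of 170 cells held it at P15, with 76.4% of the UMIs in 5 of them. Mmp10 stood at 543 CPM (515 to 572), 11.8 and 4.60 CPM. Cemip, a protein that degrades hyaluronan, stood at 546 CPM (518 to 575), 90.4 and 55.2 CPM, against 16.6, 34.3 and 26.9 CPM in the other mesenchymal cells. Pla1a, a phospholipase, stood at 144 CPM (129 to 159), 24.7 and 13.8 CPM. A high level at P15 was likewise a condition for naming them. Mcpt8 (217, 0 and 0 CPM) and Prss34 (194, 0 and 0 CPM), protease genes of basophils, each rested on a single P15 cell, which held 99.8% and 99.2% of the UMIs. The age, the pool of animals and the library cannot be told apart in any of these values.

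**Figure D5:**
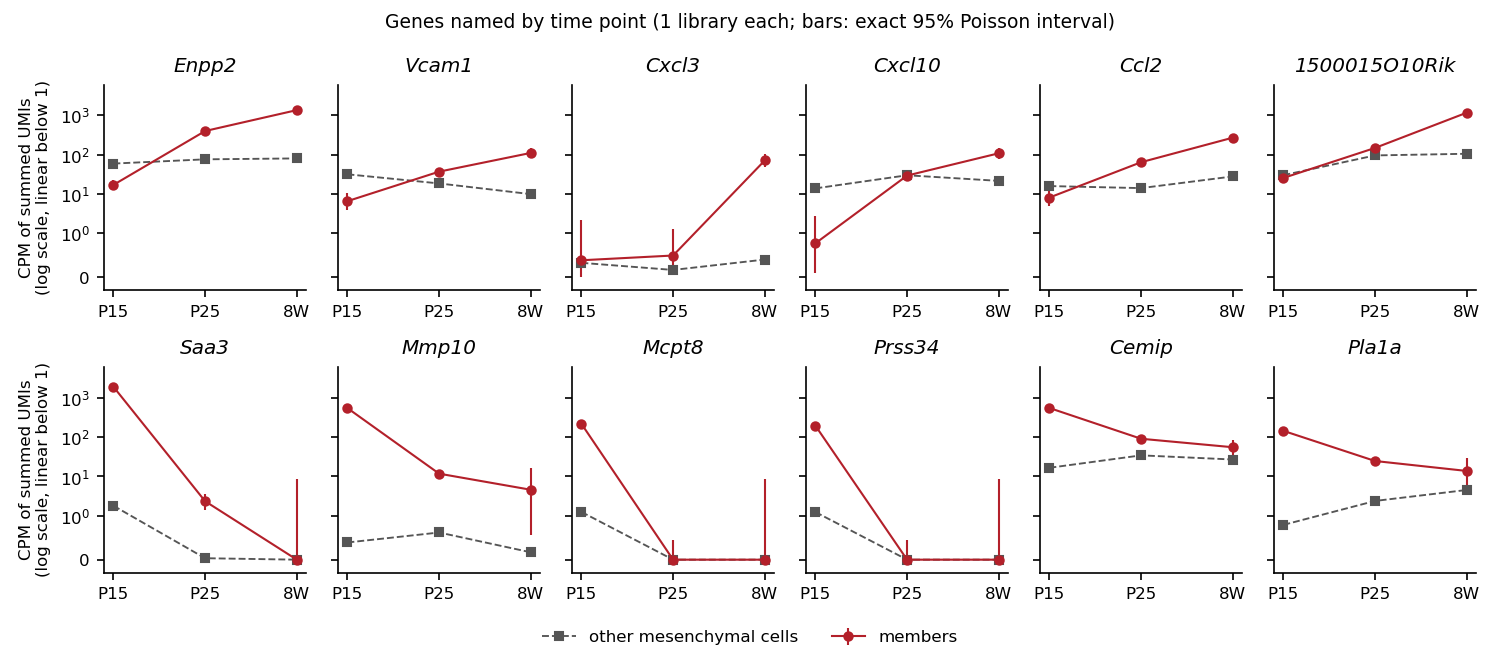
Levels in CPM of summed UMIs (log axis, linear below 1) of the genes named by age in the Mmp3/Dio2/Il1rl1 cells (members, red) and the other mesenchymal cells (gray, dashed) at P15, P25 and 8 weeks (8W), 1 library per age, with exact 95% Poisson intervals for the former. Enpp2 goes from 17.03 to 1344 CPM and Cemip from 546 to 55.2 CPM between P15 and 8 weeks.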

How the data were processed

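Droplet 3′ single-cell RNA-seq libraries of sorted Pthrp-mCherry+ cells were analysed from the count matrices (UMI counts) deposited by the authors. Per the labels the authors used Cell Ranger 6.1.2 and mm10. The file headers of P15 and 8 weeks name the same version and that of P25 another, which cannot be told apart from age. Of 27089 barcodes, 24328 were kept, having 500 or more genes and no more than 20% of UMIs from mitochondrial genes (total UMIs 188157997, 169712592 and 46234378). Counts were restricted to the 21446 gene IDs that all libraries share. Doublets were scored (Scrublet in scanpy 1.11.5) and kept in the main analysis. The caller's own threshold marked 413, 0 and 20 cells, so the 6% of highest score in each library stood for doublets in an alternative.

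The members, gene lists and comparison gates were chosen with earlier results of these data known, and the lists draw on them, so the tests say how steady a difference was, not that the cells form a separate type. Compared groups were other mesenchymal cells (at least 1 UMI of Pdgfra or Pdgfrb, at least 10 of Col1a1 and Col1a2, none of Pecam1 or Cdh5), periapical-gated cells (at least 2 of Hand2, Nts and Alx1, at least 4 UMIs) and ligament-gated cells (at least 3 of Ogn, Angpt4, Igfbp3 and Sfrp2, at least 8 UMIs), all with Ibsp below 1% and no Ptprc or Epcam. Counts were summed per library and group and tested with edgeR 4.0.16 (R 4.3.3), TMM scaling, its low-count filter, a library block and Benjamini-Hochberg adjustment. Both sums of a library come from the same pool of animals, and they deviated together (correlations 0.460, 0.610 and 0.438 with the other mesenchymal cells). The correlations were lower with the periapical-gated cells (0.275, 0.531 and 0.227) and the ligament-gated cells (0.362, 0.558 and 0.361). Genes of the rule, the marker set and the gate of the group compared got no test, while those of another group's gate were tested. Named genes were the 10 highest and 10 lowest called genes (5 and 5 for the gated groups) with at least 50 CPM in the higher group and the same direction in all libraries, leaving out gate genes of that comparison, given markers, mitochondrial and ribosomal protein genes and Gm or Rik models. A named gene of the periapical comparison and some list genes are not reported here by name, though counts include them. From the lists the called genes of highest CPM were named first, and any other list gene named was chosen after its values were seen. Genes by age were those with a log2 ratio (CPM + 5) of 1.5 or more, P25 not outside the other ages and the largest difference from the same ratio in the other mesenchymal cells. DESeq2 1.42.0 was an alternative. The fit was tested on simulated data. The depth limits the 8-week values most.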

Additional observations from a re-analysis of the deposited data

Results flagged for a closer look

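In 5 genes of the lists, the Mmp3/Dio2/Il1rl1 cells lay on opposite sides of the other mesenchymal cells at different ages by more than 1 in each direction, on the log2 ratio of CPM + 5 at P15, P25 and 8 weeks and with at least 50 CPM in one group at those ages. Other list genes, such as Dcn and Mmp13, changed sides by less. There is 1 library per age, and the differences between ages were not tested. Mgp, matrix Gla protein, an inhibitor of calcification, had ratios of -1.33, -1.94 and 1.33, from 247, 63.7 and 1494 CPM against 631, 259 and 592 CPM. Sfrp2, a secreted Wnt modulator, had ratios of 1.06, -1.38 and -1.12. Bmp7, a bone morphogenetic protein, had ratios of 1.02, 0.0885 and -1.59. Atf3, a stress-induced transcription factor, had ratios of 1.16, -2.29 and -0.597. Tac1, the precursor of substance P, had ratios of -2.48, 2.20 and 0.900, from 19, 74.2 and 11.5 CPM against 129, 12.3 and 3.83 CPM.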

How the results depend on the processing

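None of the 40 values of named genes changed sign under any alternative run. Under the DESeq2 Wald test and a cell filter of 1000 genes and 10% mitochondrial UMIs all 40 stayed called, and after thinning to 3000 UMIs all 35 that could be fitted did. When separate parts of the UMIs served the rule and the sums, 4 of the 40 were no longer called. The same held for 3 under the stricter rule (all 3 genes and 8 UMIs) and 3 without the low-count filter, among them Chchd10 and Mmp10, and for 1 each under DESeq2 size factors, the mesenchymal gate on the members and the removal of high doublet scores. Under the stricter rule 815 of 1442 calls against the other mesenchymal cells were kept and 13 had the opposite sign. The count of calls against the other mesenchymal cells was 1447. Without the library as replicate block it was 830, with 8 of the 40 named values no longer called. The count ran from 1330 to 1598 when each library was left out, but only 1047 to 1216 of the 1447 calls were kept. Without the block, 968 genes were called against the periapical-gated and 1348 against the ligament-gated cells. The count of 1180 against the periapical-gated cells was 728 after thinning (5266 genes tested in place of 11706) and 687 without P25. The range without each library was 687 to 1170, with 596 to 883 of the 1180 calls kept. Against the ligament-gated cells the count was 1642, with a range of 1270 to 1933 and 1099 to 1442 of the 1642 calls kept. The shares of Mmp3/Dio2/Il1rl1 cells at P15, P25 and 8 weeks moved to 1.06%, 1.25% and 0.334% after thinning, and to 0.412%, 0.252% and 0.0871% when all 3 genes and 8 UMIs were asked for, which put P15 above P25. That rule left 4 cells at 8 weeks, so its fit used P15 and P25 alone. Chosen after the data were seen, a mesenchymal gate on the members gave 1510, 1196 and 1690 calls in the 3 comparisons, and neither it nor removing high doublet scores changed the direction of a gene named by age. The comparison with Ibsp-high cells was not run for lack of cells. Sizes were less steady than signs. After thinning Angpt4 stood at -5.44 and Nts at -4.39 against the other mesenchymal cells and Mia at -10.83 against the ligament-gated ones. Each gene named as higher than in the other mesenchymal cells had a smaller value after thinning. Adgrf5 then stood at 2.90, Rarres1 at 3.02, Col6a5 at 3.05 and Tnfrsf21 at 3.77. Without high doublet scores Col11a2 stood at -4.55, Mia at -7.34 and Krt18 at -6.18. Under the stricter rule Stmn2 stood at -2.22 against the periapical-gated and Vit at -2.52 against the ligament-gated cells, and without P15 Mmp10 at 5.23 against the latter. With 37 cells at 8 weeks, a gene with no UMI there may stand at up to 6.89 CPM.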
